A study of Mus musculus with 9 samples.

Results

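The RNAs described here were 9 long noncoding RNAs of the mouse, chosen by name: the small nucleolar RNA (snoRNA) hosts Gas5, Snhg1, Snhg3, Snhg5, Snhg6, Snhg8 and Snhg12, and the nuclear RNAs Malat1 and Neat1. All 9 were among the 24493 rows of the gene table, and all 9 were among the 12693 rows high enough to be tested. Gene expression had been measured by RNA sequencing in 9 libraries of 6620c1, a mouse pancreatic tumor cell line, 3 each at day 0, day 2 and day 14. The labels list the same medium for every library, day 0 included. It was DMEM in which glucose was at 2.5 mM, amino acids were reduced to 20% of the usual amount and the fetal calf serum was 0.5%, given as a model of nutrient and oxygen shortage, and no further treatment is listed. The oxygen level and the medium before day 0 are not given there, and no cells kept without deprivation for the same time are listed, so an effect of the medium and one of time cannot be told apart. Nothing in the labels says whether the 3 libraries of a day came from separate cultures, so the p-values measure the spread between these libraries, which may be technical. Values are TPM, an abundance per transcript corrected for its length and scaled within each library. Levels can therefore be compared between genes, but less surely for rows as short as snoRNAs, since the library type is not given. In bulk RNA, fewer cells of a type and less RNA per cell cannot be told apart.

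snoRNA host genes carry snoRNAs in their introns. C/D box snoRNAs guide methylation of ribosomal RNA and H/ACA box snoRNAs guide its pseudouridylation, while the spliced exons of the noncoding hosts leave as long RNAs that are mostly short-lived, and several are degraded by nonsense-mediated decay when they are translated. Gas5 takes its name from its accumulation in growth-arrested cells, and its RNA, like that of other hosts, begins with a run of pyrimidines (a 5′ terminal oligopyrimidine tract, TOP) typical of mRNAs for ribosomal proteins. Malat1 is an abundant RNA of nuclear speckles, bodies rich in splicing factors, and Neat1 is the scaffold of paraspeckles, nuclear bodies known to form under hypoxia and other stress.

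Sequences around the annotated starts were read from RefSeq (GRCm38.p6) promoter windows, which held 7 of the 9 RNAs in 8 windows, Gas5 having 2. Snhg6 and Neat1 had none. The 6 starts shown here are those of the hosts that changed and of Malat1, from 45 bases before to 20 after the annotated start. Capitals mark the letters TATA wholly between 40 and 21 bases before the start and the TOP letters near it, a C followed by at least 4 pyrimidines.
Gas5 start, chr1:161035121-161035185, plus strand: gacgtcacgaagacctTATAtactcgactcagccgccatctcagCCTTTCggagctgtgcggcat
Snhg8 start, chr3:123508317-123508381, minus strand: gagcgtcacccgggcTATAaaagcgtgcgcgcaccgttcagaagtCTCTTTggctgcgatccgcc
Snhg12 start, chr4:132308633-132308697, plus strand: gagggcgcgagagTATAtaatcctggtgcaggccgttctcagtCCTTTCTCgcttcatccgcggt
Snhg3 start, chr4:132353667-132353731, minus strand: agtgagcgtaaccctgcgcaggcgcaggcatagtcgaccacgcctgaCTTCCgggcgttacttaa
Snhg1 start, chr19:8723442-8723506, plus strand: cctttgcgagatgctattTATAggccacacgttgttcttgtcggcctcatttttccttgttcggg
Malat1 start, chr19:5802653-5802717, minus strand: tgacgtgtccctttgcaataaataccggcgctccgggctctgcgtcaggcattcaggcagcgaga
TOP letters, read from the annotated start itself, were present in Gas5 and Snhg8, a feature of 2.51% of the 32851 windows in the table. In Gas5 a further C came just before the start. Within 5 bases of the start TOP letters were also found in Snhg12 and Snhg3 (18.3% of all windows), and within 20 bases in Snhg5 too (49.4%). The letters TATA, searched on the gene strand, were present there in Gas5, Snhg1, Snhg12 and Snhg8 (5.34% of all windows), and with the stretch extended by 1 base, to 20 bases before the start, in Snhg5 as well (5.49%). The Gas5 window not shown had neither these TATA letters nor TOP letters within 20 bases of its start. On either strand of the whole window, ACGTG, the core of the hypoxia response element, was found in Malat1, Snhg1 and Snhg5 (19.6% of all windows). CACGTG, the E-box, which contains ACGTG, and TGATGCA, the core of the amino acid response element, were found in 0 of the 8 windows, against 7.15% and 3.15% of all windows. In Snhg3 the letters began 2 bases after the annotated start, which is a G, and in Snhg12 just before its start. Whether TOP letters bear on the changes described here was not tested.

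Malat1 and Neat1 had the largest rises of the 9 at day 2, and Malat1 and Snhg12 at day 14. Among the 7 snoRNA hosts the directions were mixed: Snhg12 rose at both times, Gas5, Snhg1 and Snhg8 rose by less than 1 on the log2 scale in at least 1 comparison, Snhg3 fell, and Snhg5 and Snhg6 passed the test in neither comparison with day 0. At day 2 against day 0, 5 of the 9 RNAs were higher, 1 was lower and 3 did not pass, where limma called 59.0% of all genes tested, 27.1% higher and 31.9% lower. At day 14 against day 0 the count was again 5 higher and 1 lower, where 55.1% of all genes were called, 36.2% higher and 18.8% lower. Of the 7 hosts, 3 were higher and 1 lower at both times, with a median log2 fold change of 0.26 at day 2 and 0.33 at day 14, beside -0.02 and 0.22 over all genes tested. The hosts' share called was therefore close to that of all genes. The libraries of the days compared did not overlap for 6 of the 9 RNAs between day 0 and day 2 (66.5% of all genes), for 7 between day 0 and day 14 (66.6%) and for 2 between day 2 and day 14 (41.3%).

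**Figure D1:**
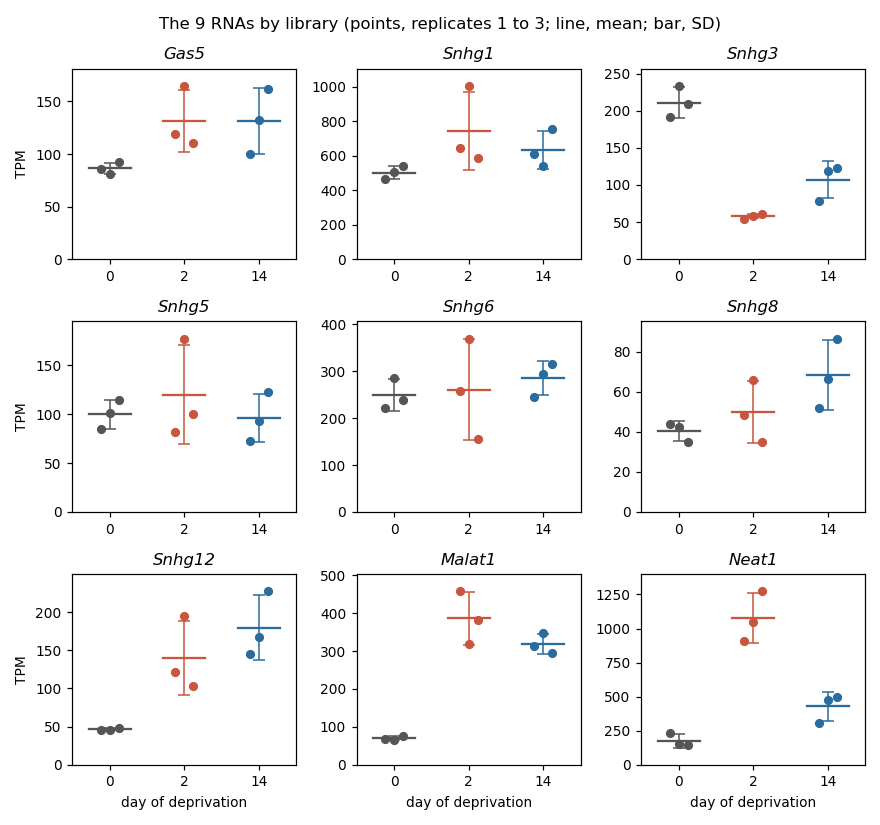
TPM (vertical axes, from 0) of the 9 RNAs in each of the 9 libraries by day of deprivation; points are libraries, lines the mean and bars the SD of 3 libraries. Malat1, Neat1, Snhg12 and Gas5 lie above day 0 in every later library, and Snhg3 lies below it. Snhg1 lies above day 0 too, at day 14 by very little.

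Gas5, the host linked to growth arrest, stood at 85.5, 81.4 and 91.9 TPM in the day 0 libraries (replicates 1 to 3). It stood at 119, 165 and 110.4 TPM at day 2 and at 99.7, 132 and 162 TPM at day 14. Every later library was above every day 0 library, and the days 2 and 14 overlapped. The mean went from 86.3 ± 5.34 TPM (SD, n = 3) to 131.5 ± 29.2 and 131.3 ± 31.2 TPM. The log2 fold change was 0.58 (SE 0.19) at day 2, with a limma adjusted p of 0.0275, and 0.57 at day 14, with a limma adjusted p of 0.0317. The day 2 call was lost without day 0 replicate 1, day 0 replicate 2 or day 2 replicate 2 (limma adjusted p from 0.0649 to 0.0874) and without the filter on low genes (0.0504). The day 14 call was lost without any 1 of the 3 day 0 libraries, day 14 replicate 2 or day 14 replicate 3 (0.0545 to 0.103) and under median-of-ratios scaling (0.204). Gas5 overlaps Zbtb37 on the other strand, and the labels do not give whether the libraries kept strand.

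Snhg12, host of 4 annotated snoRNAs, stood at 46.0, 45.7 and 48.2 TPM at day 0. It reached 121, 195 and 103 TPM at day 2 and 145, 167 and 227 TPM at day 14. Neither later day overlapped day 0, and the days 2 and 14 overlapped each other. The rise was 2.85-fold at day 2 (log2 1.51, SE 0.23, limma adjusted p = 0.000500) and 3.73-fold at day 14 (log2 1.90, limma adjusted p = 0.000215). Both calls held in every alternative run.

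Snhg3, host of the H/ACA snoRNAs of the Snora73 family, moved the other way. It stood at 191, 234 and 209 TPM at day 0, at 54.6, 58.7 and 61.0 TPM at day 2 and at 78.5, 119 and 124 TPM at day 14. No pair of days overlapped: day 2 was lowest and day 14 lay between. The log2 fold change was -1.84 at day 2 (SE 0.17, limma adjusted p = 2.11e-05) and -0.997 at day 14 (limma adjusted p = 0.00113). From day 2 to day 14 it rose by 0.84 on the log2 scale (limma adjusted p = 0.00586), 1 of the 2 RNAs of the 9 called in that comparison, where 31.2% of all genes were called, 27.4% higher and 3.79% lower. All 3 calls held in every alternative run. Snhg3 and Snhg12 are near neighbours on chromosome 4, on opposite strands, with Trnau1ap and Rcc1 between them in RefSeq. The ratio of Snhg12 to Snhg3 within a library went from 0.222 ± 0.0235 (SD, n = 3) on day 0 to 2.41 ± 0.837 on day 2, and was 1.70 ± 0.254 on day 14.

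Snhg1 was the most abundant host at each day. It stood at 463, 503 and 539 TPM at day 0, at 646, 1005 and 586 TPM at day 2 and at 609, 539 and 753 TPM at day 14. The libraries of day 2 all lay above day 0, while the lowest of day 14 (538.7 TPM) was level with the highest of day 0 (538.5 TPM). The log2 fold change of 0.53 at day 2 passed (SE 0.20, limma adjusted p = 0.0441). Without day 2 replicate 2 it was 0.30 (limma adjusted p = 0.113), and the call was also lost without any 1 day 0 library or day 14 replicate 1, without the filter, without the variance trend and with the replicate number as a block (0.0531 to 0.118). At day 14 the log2 fold change was 0.33 (limma adjusted p = 0.192), and under quantile normalization it was 0.54 and passed (0.0247).

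Snhg8, the least abundant of the 9 RNAs at each day, stood at 44.1, 42.3 and 34.999 TPM at day 0, at 48.5, 65.9 and 35.1 TPM at day 2 and at 52.0, 66.6 and 86.5 TPM at day 14. Day 14 lay above day 0 in every library, and day 2 overlapped both. The log2 fold change was 0.26 at day 2 (limma adjusted p = 0.386) and 0.72 at day 14 (SE 0.24, limma adjusted p = 0.0308). The day 14 call was lost without day 0 replicate 2 or 3, without day 14 replicate 2 or 3, without the filter and under median-of-ratios scaling (limma adjusted p from 0.0507 to 0.127).

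Snhg5, host of C/D box snoRNAs, stood at 84.7, 101 and 114 TPM at day 0, at 81.9, 177 and 100.5 TPM at day 2 and at 73.0, 92.8 and 122 TPM at day 14. Snhg6, host of Snord87, stood at 221, 286 and 239 TPM, at 258, 369 and 155 TPM and at 246, 293 and 316 TPM on the same days. For both RNAs the days overlapped. Their log2 fold changes were 0.19 and -0.01 at day 2 (limma adjusted p = 0.585 and 0.977) and -0.08 and 0.20 at day 14 (0.828 and 0.553). The SE was 0.28 for Snhg5 and 0.27 for Snhg6, larger than the 0.19 of Gas5, so smaller changes were not detectable here. Snhg6 overlaps Mcmdc2 on the other strand, a gene at 0.993 ± 0.0402 TPM at day 0 (SD, n = 3).

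Malat1 stood at 68.2, 66.6 and 75.6 TPM at day 0. It reached 457, 318 and 383 TPM at day 2 and 313, 346 and 294 TPM at day 14. Both later days lay far above day 0 and overlapped each other. The rise was 5.39-fold at day 2 (log2 2.43, SE 0.14, limma adjusted p = 1.31e-06) and 4.48-fold at day 14 (log2 2.16, limma adjusted p = 1.20e-05). The change from day 2 to day 14 was -0.27 on the log2 scale and did not pass (limma adjusted p = 0.161). It passed at -0.55 under median-of-ratios scaling, -0.48 under quantile normalization and -0.40 without day 2 replicate 2 (limma adjusted p = 0.0273, 0.0417 and 0.0335).

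Neat1, the RNA next to Malat1 on chromosome 19 and on the same strand, stood at 234, 152 and 142 TPM at day 0. It reached 909.9, 1050.4 and 1272 TPM at day 2, and stood at 309, 474 and 501 TPM at day 14. No pair of days overlapped, day 2 was highest and day 14 lay between. The rise was 6.18-fold at day 2 (log2 2.63, SE 0.24, limma adjusted p = 1.95e-05) and 2.43-fold at day 14 (log2 1.28, limma adjusted p = 0.00181). From day 2 to day 14 Neat1 fell by 1.35 on the log2 scale (limma adjusted p = 0.00317). The ratio of Neat1 to Malat1 averaged 2.53 ± 0.801 (SD, n = 3) on day 0, 2.87 ± 0.763 on day 2 and 1.35 ± 0.360 on day 14. Of the 9 RNAs, Neat1 was the 1 called lower at day 14 than at day 2 in the fit of all 9 libraries on TPM as deposited. Its short and long isoforms share a start and a single row in the table, so they are not separated here.

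**Figure D2:**
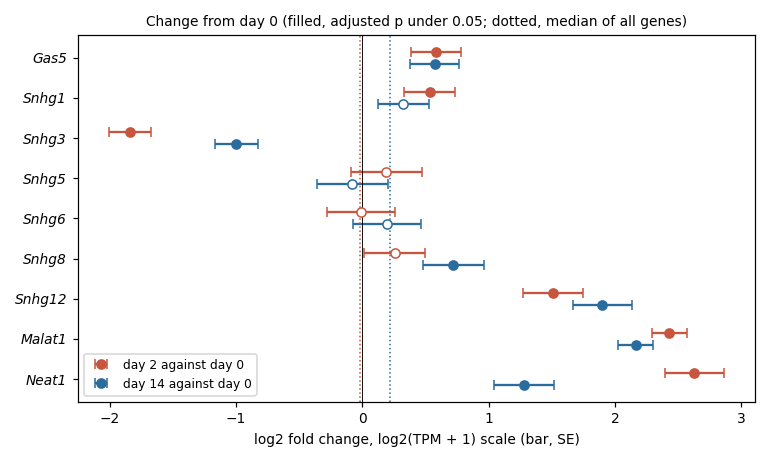
Log2 fold change from day 0 (horizontal axis, log2(TPM + 1) scale) of the 9 RNAs at day 2 and day 14; bars are SE, filled points passed at an adjusted p under 0.05, and dotted lines are the medians of all genes tested (-0.02 and 0.22). Malat1, Neat1 and Snhg12 lie far to the right and Snhg3 to the left at both times.

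The order of the levels changed with the days. At day 0 it ran Snhg1, Snhg6, Snhg3, Neat1, Snhg5, Gas5, Malat1, Snhg12 and Snhg8, from 501 to 40.4 TPM, and the ranges of Snhg6 and Snhg3, of Snhg3 and Neat1, and of Snhg5 and Gas5 overlapped. At day 2 Neat1 came first with 1077 ± 182 TPM (SD, n = 3), and its range overlapped that of Snhg1, while Malat1 had moved from the seventh place to the third and Snhg3 from the third to the eighth. At day 14 Snhg1 was first with 634 ± 109 TPM, above the range of Neat1, and from Snhg12 down to Snhg8 each neighbour's range overlapped the next. The 7 hosts together held 1235 ± 86.5 TPM at day 0, 1506 ± 468 TPM at day 2 and 1501 ± 256 TPM at day 14. Malat1 and Neat1 together held 246 ± 48.3, 1463 ± 166 and 745 ± 108 TPM. The ratio of the sums was 5.18 ± 1.23 at day 0, 1.05 ± 0.402 at day 2 and 2.02 ± 0.275 at day 14. On the log2(TPM + 1) scale, the hosts' mean less that of Malat1 and Neat1 was 0.16 ± 0.24, -2.19 ± 0.52 and -1.18 ± 0.20.

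At day 2 and day 14 a single library held the highest values of most hosts. Day 2 replicate 2 held the highest value of its day in 6 of the 7 hosts, all but Snhg3, and day 14 replicate 3 in all 7, while at day 0 the highest values were split 1, 2 and 4 over the 3 libraries. The row Mir6236, a short and very abundant one, held a share of 10.1% of TPM in the day 0 libraries on average, beside 16.8% on day 2 and 12.2% on day 14, with 22.5% in day 2 replicate 3, so other rows hold a smaller share there. Without the rows Mir6236 and Rn45s, and with sample weights, limma called as many of the 9 RNAs as before, 6 in each comparison with day 0 and 2 between the later days.

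The scaling between libraries bears on the small changes. Median-of-ratios scaling moved the median of all genes by -0.27 on the log2 scale at day 14 against day 0 and by -0.26 at day 14 against day 2. With it 3085 genes were called higher and 4027 lower at day 14 against day 0, beside 4601 and 2389 with TPM as deposited, and 1572 and 1485 at day 14 against day 2, beside 3474 and 481. Removal of the 20 most abundant rows moved the median at day 2 by 0.16 and gave 4563 higher and 3457 lower genes, beside 3438 and 4046. Relative to the median of all genes, Malat1 was higher by 2.45 at day 2 and 1.94 at day 14, Neat1 by 2.64 and 1.06, Snhg12 by 1.52 and 1.68, and Gas5 by 0.60 and 0.35, while Snhg3 stood at -1.82 and -1.22. Of the hosts, 1 was higher and 1 lower at day 14 under median-of-ratios scaling, and 4 and 1 under quantile normalization. In the marker check, the summed level of 6 epithelial markers was 10785 to 11441 TPM at day 0, 5456 to 7572 TPM at day 2 and 6786 to 8543 TPM at day 14. Of the 6, 0 were higher and 4 lower at day 2 (27.1% and 31.9% of all genes), and 2 and 3 at day 14 (36.2% and 18.8%). The 2 higher were Epcam, from 2.23 TPM at day 0 to 14.1 TPM, and Cdh1, from 239.6 to 398.9 TPM. The 6 fibroblast markers summed to at most 1.01 TPM and the 6 endothelial markers to at most 1.60 TPM in any library. The 6 leukocyte markers summed to 2.24 to 2.56, 3.68 to 5.23 and 9.46 to 13.5 TPM, most of it Cd68 and Csf1r, and Ptprc, the pan-leukocyte marker, was at most 0.515 TPM. No marker of these lists was at 0 in every library, and their part in the changes described here was not tested.

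At day 2 the snoRNA rows called inside these hosts were lower, while the hosts they lie in were called higher. The table held 8 rows of snoRNAs that lie inside 1 of the 7 hosts on the same strand in RefSeq, and 7 were tested. At day 2, 5 of the 7 were lower and 0 higher, with a median log2 fold change of -1.60, where 31.9% of all genes were lower. The 4 shown here are among the 5 called lower and sit in hosts that rose at day 2. Snora16a, also called lower, and Snora44, not called, lie in Snhg12 too and are given below. The sequences are from GENCODE M21 (GRCm38). Capitals mark the C box (TGATGA) and D box (CTGA) of C/D box snoRNAs and the ACA of an H/ACA box snoRNA, where those exact letters were found.
Snord47, in Gas5: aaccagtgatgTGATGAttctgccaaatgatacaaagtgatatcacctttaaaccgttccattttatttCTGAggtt
Snord22, in Snhg1: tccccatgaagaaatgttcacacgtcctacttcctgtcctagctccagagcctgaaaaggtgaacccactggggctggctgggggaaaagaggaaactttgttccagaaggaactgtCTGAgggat
Snord99, in Snhg12: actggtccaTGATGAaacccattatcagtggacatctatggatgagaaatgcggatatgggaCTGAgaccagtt
Snora61, in Snhg12: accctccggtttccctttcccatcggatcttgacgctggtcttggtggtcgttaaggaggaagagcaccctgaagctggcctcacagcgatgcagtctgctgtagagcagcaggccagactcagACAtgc
Snord47 stood at 527, 439 and 429 TPM at day 0, at 20.5, 189 and 87.8 TPM at day 2 and at 129, 175 and 360 TPM at day 14. Snord99 stood at 471, 437 and 551 TPM, at 21.3, 118 and 128 TPM and at 157, 327 and 418 TPM on the same days. In both, each day 2 library was below each day 0 library. Snord22 stood at 1147, 903 and 1393 TPM, at 238, 425 and 574 TPM and at 266, 749 and 692 TPM. Snora61 stood at 298, 371 and 599.5 TPM, at 104, 153 and 160.0 TPM and at 219, 354 and 279 TPM. These rows too did not overlap between day 0 and day 2. The log2 fold change at day 2 was -2.70 for Snord47 (limma adjusted p = 0.00741), -2.80 for Snord99 (0.00384), -1.54 for Snord22 (0.0113) and -1.56 for Snora61 (0.00116).

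Read against their own hosts, the differences were larger, which follows from dividing rows that fell by hosts that rose and is no separate result. The ratio of Snord47 to Gas5 within a library averaged 5.41 ± 0.748 (SD, n = 3) on day 0, then 0.704 ± 0.493 on day 2 and 1.61 ± 0.524 on day 14. That of Snord99 to Snhg12 was 10.4 ± 0.952, 0.673 ± 0.536 and 1.63 ± 0.473. In both, each day 2 ratio was below each day 0 ratio. Snord22 to Snhg1 went from 2.29 ± 0.428 to 0.590 ± 0.338 and 0.915 ± 0.476, and Snora61 to Snhg12 from 9.005 ± 3.08 to 1.06 ± 0.426 and 1.62 ± 0.454. Within Snhg12, Snora16a was also lower at day 2 (log2 -1.60, limma adjusted p = 0.0213; 0.0638 to 0.0778 without day 0 replicate 3, without day 2 replicate 2 or under quantile normalization), and Snora44 stood at -1.11 (0.0757). Snord87 in Snhg6 stood at -4.15 (0.0589) and is listed at 0 in 2 of the 3 day 2 libraries, and Snora24 in Snhg8 is listed at 0 in all 9. Snora44 and Snord87 both passed at day 2 in some alternatives, as with only the groups compared (limma adjusted p = 0.00533 and 0.0221). At day 14 against day 0, 1 of the 7 was lower, Snord22 (log2 -1.13, limma adjusted p = 0.0466), and 0 were higher, where 18.8% and 36.2% of all genes were. That call was lost without the filter, without any 1 day 0 library and in other alternatives (limma adjusted p up to 0.133). Snora16a and Snora44 stood at 0.25 and -0.18 at day 14 against day 0 (limma adjusted p = 0.687 and 0.770), and their libraries overlapped day 0. From day 2 to day 14, Snora16a, Snora61 and Snord99 rose (limma adjusted p = 0.0220, 0.0226 and 0.0370). Under median-of-ratios or quantile scaling, and without day 14 replicate 2 or 3, 0 of the 7 passed.

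SnoRNA rows outside these hosts were also among those called lower at day 2. Over all 117 rows named Snord, Snora or Scarna, 90 were tested, and 33 were lower and 1 higher at day 2, beside 31.9% and 27.1% of all genes. Most of the 90 did not pass, and their median log2 fold change was -1.35, beside -0.02 over all genes. At day 14 against day 0, 8 of the 90 were lower and 4 higher, beside 18.8% and 36.2% of all genes. TPM gives no count of the fragments behind rows this short, and reads of a mature snoRNA and of an unspliced host cannot be told apart. The labels do not give which RNA sizes the libraries kept.

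**Figure D3:**
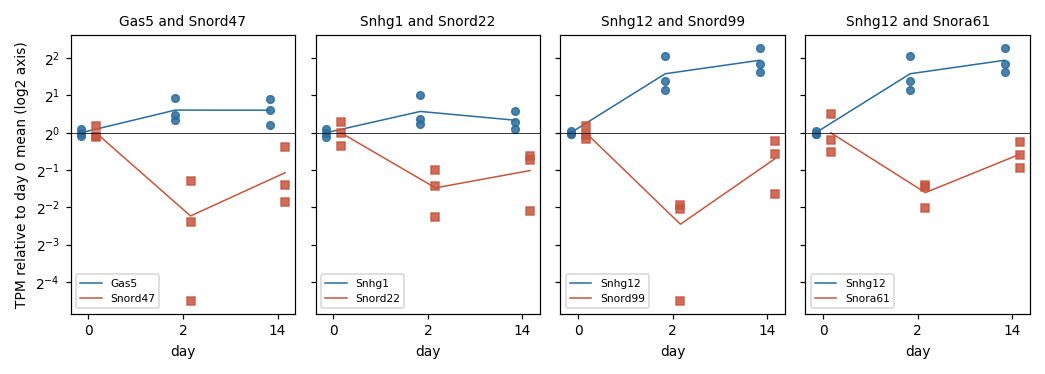
TPM relative to the day 0 mean (vertical axis, log2) of 3 hosts (circles) and 4 snoRNAs from their introns (squares) in each library at day 0, 2 and 14; lines join the day means and the days are evenly spaced. These 4 snoRNAs lie below their day 0 mean in all 6 later libraries, and the hosts lie above theirs. Snora16a and Snora44 of Snhg12, not drawn, each had at least 1 day 14 library above the day 0 mean.

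Other noncoding snoRNA hosts also changed in both directions. Of 11 tested, 2 were higher and 4 lower at day 2, and 4 were higher and 2 lower at day 14, a share near the 59.0% and 55.1% called over all genes. The day 14 count was 2 higher and 3 lower under median-of-ratios scaling and 2 and 4 under quantile normalization. Zfas1, host of Snord12 and like Gas5 a TOP-bearing host, rose from 133 ± 5.05 to 499 ± 98.5 TPM at day 2 and stood at 258 ± 36.2 TPM at day 14 (SD, n = 3; limma adjusted p = 9.46e-06 and 0.000827). 2410006H16Rik, host of Snord49a, Snord49b and Snord65, rose from 387 ± 12.5 to 1275 ± 83.9 and 685 ± 119 TPM. Both thus peaked at day 2. Snhg9 fell by 3.77 on the log2 scale at day 2 (limma adjusted p = 0.0192), from 35.1 ± 22.4 to 2.90 ± 5.02 TPM, and Snhg15 by 1.28 (limma adjusted p = 0.000233). Of 20 protein-coding hosts tested, most of them genes of ribosomal proteins and translation factors, 12 were higher and 5 lower at day 2, where 27.1% and 31.9% of all genes were. At day 14 the count was 8 and 6, or 3 and 9 under median-of-ratios scaling. Tpt1, a highly abundant TOP mRNA, rose by 1.36 on the log2 scale at day 2 (limma adjusted p = 3.59e-06), and Nop56, which codes for a core protein of C/D box particles, fell by 2.33 (limma adjusted p = 2.47e-05).

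Most genes of the proteins that package snoRNAs fell. Of 13 tested proteins of the C/D and H/ACA particles and their assembly, 12 were lower and 0 higher at day 2, and 11 were lower and 0 higher at day 14, with median log2 fold changes of -1.32 and -0.86. Over all genes, 31.9% were lower at day 2 and 18.8% at day 14. Nhp2, an H/ACA core protein, fell from 401 ± 14.8 to 73.4 ± 13.8 and 120.3 ± 18.5 TPM (SD, n = 3; limma adjusted p = 2.58e-06 and 4.79e-05). Fbl, the C/D methyltransferase fibrillarin, fell by 0.97 on the log2 scale at day 2, and Dkc1, the H/ACA pseudouridine synthase, by 1.90 (limma adjusted p = 0.000150 and 5.75e-05). Nop56 stands in this list and among the protein-coding hosts. Of 17 factors of nonsense-mediated decay, the pathway that degrades several of the spliced hosts, 3 were higher and 6 lower at both times, a share near that called over all genes (59.0% and 55.1%). At day 14 the count was 2 and 11 under median-of-ratios scaling and 2 and 9 under quantile normalization. Smg6, its endonuclease, rose by 0.93 on the log2 scale at day 2 (limma adjusted p = 0.000329), while Magohb, of the exon junction complex, fell by 2.23 (limma adjusted p = 2.45e-06). Upf2, a core factor of the pathway, rose by 0.79 at day 14 (limma adjusted p = 0.00416).

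Genes of the proteins of paraspeckles and nuclear speckles were called lower more often than higher with TPM as deposited. Of 18 paraspeckle proteins, 1 was higher and 13 lower at day 2, and 1 and 10 at day 14, where 31.9% and 18.8% of all genes were lower. Under quantile normalization the day 2 count was 2 and 6. The 1 higher was Zc3h6, from 0.726 ± 0.0714 to 8.23 ± 1.80 TPM at day 2 (SD, n = 3; limma adjusted p = 4.04e-06). Zc3h6 was under 1 TPM in every day 0 library, so it passed the filter on low genes only through the later days. Nono and Sfpq, core paraspeckle proteins that bind Neat1, fell by 0.34 and 0.68 on the log2 scale at day 2 (limma adjusted p = 0.0170 and 0.00522), and Rbmx by 1.31 (3.95e-05). At day 14 the largest fall was that of Hnrnpm, a splicing regulator (log2 -0.89, limma adjusted p = 5.85e-05). Of 16 nuclear speckle proteins, 2 were higher and 10 lower at day 2 and 3 and 7 at day 14, and 6 and 4 at day 14 under quantile normalization. Srrm2, a speckle scaffold, rose by 0.60 and 0.67 on the log2 scale at the 2 times (limma adjusted p = 0.00338 and 0.00232), and Srsf2, a splicing factor, fell by 1.71 and 1.24 (2.55e-05 and 0.000288). Of 14 genes of RNA processing, methylation or decay, listed for Malat1 and Neat1, 0 were higher and 11 lower at day 2, and 1 and 11 at day 14. Pop1, a subunit of RNase P, which cuts the 3′ ends of Malat1 and of the long Neat1 isoform, fell by 1.78 on the log2 scale at day 2 (limma adjusted p = 0.000208), and Rpp38, another subunit, was the 1 higher at day 14 (log2 0.41, limma adjusted p = 0.0265).

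Of 10 other long or abundant nuclear noncoding RNAs tested, 6 were higher and 0 lower at day 2, and 9 higher and 0 lower at day 14, with median log2 fold changes of 0.64 and 0.91, where 27.1% and 36.2% of all genes were higher. Firre, a nuclear RNA of the X chromosome, rose from 6.28 ± 0.707 to 24.5 ± 2.41 TPM at day 2 (SD, n = 3; limma adjusted p = 5.00e-06). Terc, the telomerase RNA, was called higher at day 14 (log2 1.61, SE 0.53, limma adjusted p = 0.0284). Its levels were low and overlapped, at 0.628, 0.469 and 3.14 TPM at day 0 and 2.21, 8.52 and 8.14 TPM at day 14. Lncpint, also among those called higher at day 14, was under 1 TPM in every day 0 library and passed the filter only through later libraries. Under quantile normalization 4 and 5 of the 10 were higher at the 2 times, with 0 lower.

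**Figure D4:**
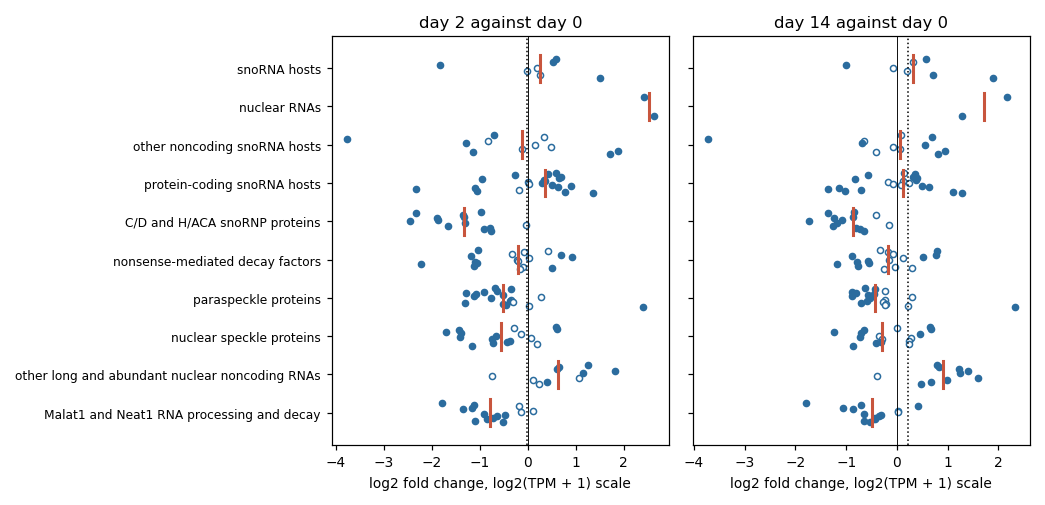
Log2 fold change from day 0 (horizontal axes, log2(TPM + 1) scale) of every tested gene in each list at day 2 and day 14; filled points passed at an adjusted p under 0.05, red bars are list medians and dotted lines the medians of all genes. The snoRNA particle proteins lie to the left of 0, and the nuclear noncoding RNAs lie mostly to the right.

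Across the 9 libraries, the genes whose log2(TPM + 1) ran most like that of Malat1, among 8129 genes compared, were Dock6 (Pearson r = 0.997), Tle6 (0.995) and Nlgn2 (0.995). Those most like Neat1 were Cdkn2b (0.983), Eno1 (0.982) and Scd2 (0.982), all of which were higher at day 2 than at day 14 on average: Cdkn2b, an inhibitor of cell cycle kinases, stood at 67.9 ± 14.4, 235 ± 26.9 and 145 ± 15.1 TPM (SD, n = 3), and Eno1, a glycolytic enzyme, at 2498 ± 195, 4920 ± 506 and 3474 ± 415 TPM. Those most like Gas5 were Faap20 (0.987), Tti2 (0.982) and Wipi2 (0.972). These are descriptions over libraries that share their days, and the 3 highest of so many genes are high by the way they were picked.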

How the data were processed

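RNA was sequenced from 9 libraries of 1 cell line, 3 a day, grouped by the day in the labels. The RNA was total RNA from a Qiagen kit with libraries by Novogene, per the labels' protocols, and Salmon was used, per the submitters' processing notes. The authors deposited gene TPM, scaled within each library. Not given in the sources used here are Salmon's version and index, the build, the library type and the meaning of the column prefix WT. TPM keep no read totals, so depth is unknown and counting intervals could not be made.

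Rows with at least 1 TPM in at least 3 libraries were tested (12693 of 24493) on log2(TPM + 1), with fold changes on that scale, which understates those of low genes. One mean per day was fitted to all 9 libraries with limma 3.58.1 in R 4.3.3 (trended variances). Tests are two-sided, with Benjamini-Hochberg adjustment over every tested row, and called at an adjusted p under 0.05. Tried as alternatives were quantile normalization, median-of-ratios scaling, other pseudocounts (0.1, 5), dropping the filter or asking for a mean of 5 TPM, removing abundant or short rows, each library left out in turn, and fits with sample weights, robust variances, a replicate block, only the groups compared or no trend. Simulated data with known changes were used to test it first.

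The 9 RNAs and the lists were chosen with earlier results of these data known. Named were all 9 RNAs, from each list the passing gene with the largest rise and the largest fall at day 2 and day 14 against day 0, all that passed where 5 or fewer did, and for Gas5, Malat1 and Neat1 the 3 genes most correlated with them (mean of at least 10 TPM, predicted genes left out). Chosen after values were seen were 2410006H16Rik, Snhg15, Fbl, Dkc1, Nono, Sfpq, Cd68, Csf1r, Ptprc, the TATA search and its edge, the window of 5 bases, the snoRNAs of other hosts and the count over all snoRNA rows. Epcam, Cdh1 and Lncpint were also named after values were seen. The snoRNAs shown and drawn were picked by no rule set beforehand, and all of them were called lower at day 2. Positions of snoRNAs within hosts, neighbours and promoter windows are from RefSeq (GRCm38.p6), and 23980 rows were found in the gene names table. Python 3.11.15 with matplotlib 3.10.9 made the figures.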

Additional observations from a re-analysis of the deposited data

Results flagged for a closer look

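Snhg3 and Neat1 changed from day 0 to a different extent at day 2 and at day 14, by the test of day 14 against day 2 in the model of all 9 libraries. Snhg3 stood 0.84 higher on the log2 scale at the later time (limma adjusted p = 0.00586), still below day 0. Neat1 stood at -1.35 in the same comparison (limma adjusted p = 0.00317), still above day 0. In each, every day 14 library lay between the libraries of day 0 and those of day 2. For the other 7 RNAs this difference did not pass in that model.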

How the results depend on the processing

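Across the alternatives, 0 of the called changes of the 9 RNAs and their snoRNAs reversed. All calls of Snhg3, Snhg12 and Neat1 and those of Malat1 against day 0 held, while those of Gas5, Snhg1 and Snhg8 depended on single libraries or scaling, as given beside them. Without day 2 replicate 2, 5 of the 9 RNAs passed at day 14 against day 2, beside 2 with it (range over the left-out libraries 2 to 5); the 3 added were Snhg8, Snhg12 and Malat1. At day 2 and day 14 against day 0, 4 to 6 passed as libraries were left out. Of the 7 snoRNAs, 5 passed at day 2 against day 0, and 4 to 7 as libraries were left out. At day 14 against day 0, 1 passed. That count was 0 without the filter, under quantile normalization, without the 20 most abundant rows, without Mir6236 and Rn45s, without a trend and with robust variances. It was 2 under median-of-ratios scaling, with the replicate block and with only the groups compared, and 0 to 2 as libraries were left out. At day 14 against day 2, 3 passed, 0 under median-of-ratios scaling and quantile normalization and 0 to 4 as libraries were left out (0 without day 14 replicate 2 or 3). The cause was not tested. The replicate numbers were not shown to pair the libraries: with the day means taken out, libraries of the same number correlated at -0.0709 to 0.318, and 4 of 9 correlated best with their own number. With the replicate number as a block, limma called 7582 genes at day 2 against day 0, beside 7484, and 5 of the 9 RNAs, beside 6. Depth is unknown, so the number of fragments behind the short snoRNA rows is unknown too.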

Other observations

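SnoRNA rows of other noncoding hosts were also low at day 2. Of 8 such rows 7 were tested, and 5 were lower and 0 higher at day 2 against day 0, with a median log2 fold change of -1.82. Over all genes, 31.9% were lower and 27.1% higher. At day 14 against day 0, 0 were lower and 1 was higher, beside 18.8% and 36.2% of all genes. The 1 higher was Snord64, whose libraries overlapped day 0. It stood at 0, 19.8 and 0 TPM at day 0, at 0 in every day 2 library and at 46.7, 18.9 and 22.9 TPM at day 14. Snord64 thus passed the filter on low genes only through the day 14 libraries. Snord12, in Zfas1, stood at 878, 619 and 975 TPM at day 0, at 163, 301 and 245 TPM at day 2 and at 258, 800.0 and 484 TPM at day 14 (limma adjusted p = 0.00299 at day 2), while Zfas1 itself rose. Snord49a, in 2410006H16Rik, stood at 521, 426 and 434 TPM, at 20.8, 0 and 71.1 TPM and at 87.4, 283 and 129 TPM (limma adjusted p = 0.00555 at day 2), again below a host that rose. Snora78 and its host Snhg9 were both lower at day 2: Snora78 stood at 228, 192 and 202 TPM at day 0 and at 0, 0 and 10.2 TPM at day 2 (limma adjusted p = 0.000119). By day 14 Snora78 stood at 176, 91.5 and 111 TPM, above every day 2 library and below every day 0 library. Tested with limma, its change between days 0 and 14 was not called (adjusted p = 0.434). Snhg9, at 0, 0 and 9.76 TPM on day 14, was called lower (log2 -3.72). Its day 0 and day 14 libraries overlapped, since day 0 replicate 3 held 9.41 TPM.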
